A study of Mus musculus with 4 samples.

Results

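The regions described here are stretches of open chromatin that both peak lists of CD4+CD8+ double-positive (DP) thymocytes held and that exactly 1 of the 2 lists of CD4-CD8- double-negative (DN) thymocytes held. They were chosen by the presence or absence of a peak in the 4 deposited lists. The assay was ATAC-seq, which reads out where a transposase can reach the DNA. Thymocytes of untreated wild-type mice (C57BL/6J, 5 to 7 weeks old) gave 2 DP and 2 DN samples. The DN cells were sorted as CD25+ and CD44-/+. Whether the paired lists of a stage stem from different mice is not given in the labels, and differences between them may be technical. Peaks on chromosomes 1 to 19 and X were merged into 107607 regions wherever they shared at least 1 bp, and 22167 of these were held by both DP lists. Of the 22167, 6213 (28.0%) were also held by exactly 1 DN list. In 5249 of the 6213 that list was DN 1 (DN 1-type regions, 23.7% of the 22167), and in 964 it was DN 2 (DN 2-type regions, 4.35%). The rest of the 22167 were held by all 4 lists (7951 regions) or by no DN list (8003 regions, called DP-only). These 4 patterns are the values that chose the regions, so their numbers are a description and were not tested. Without DP 1, regions of DP 2 with DN 2 and not DN 1 numbered 1902 in place of 964.

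Thymocytes pass through the DN stage, in which Notch signals and the pre-T cell receptor drive commitment and division. They then enter the DP stage, in which cells carry both coreceptors and are tested for their T cell receptor. Open chromatin marks promoters, many of which are open in most cell types, and distal elements such as enhancers, many of which are open in particular lineages or stages. A region held by 1 replicate of a stage and missing from the other is one for which the lists do not settle whether it is open in that stage.

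The best ranked regions of both types that covered an annotated start site lay at the promoters below, ranked by the mean of their ranks in the 3 lists that held them. Their RefSeq promoters (GRCm38.p6, the same build as mm10, 250 bp before to 50 bp after the start site, 300 bp) are shown because they are the clearest members: both DP lists gave them small p-values, and 1 DN list held no peak there. They run 5′ to 3′ on the gene's strand. Capitals mark every match, on either strand, to 12 short motifs. Those common in promoters were CCGGAAG for the core of ETS factors, GGGCGG for the GC box that SP factors bind, CCAAT for the box of the factor NF-Y, GCATGCG for NRF1, TGACGTC for the cyclic AMP response element (CRE), AAGATGG for YY1 and TATAAA for the TATA box. Those of lymphoid factors were CAGCTG for the E-box of E proteins, TGTGGT for RUNX factors, CTTTGA for TCF1 and LEF1, AGATAA for GATA factors and TGGGAA for IKAROS. Matches that overlap are joined into 1 run. The DN 1-type promoters were those of Fth1, the heavy chain of the iron store ferritin (chr19:9982396-9982695, plus strand), Bag1, a cochaperone of HSP70 (chr4:40948245-40948544, minus strand), Stk11, the kinase LKB1 (chr10:80115545-80115844, plus strand), and Klf13, a zinc finger transcription factor (chr7:63938866-63939165, minus strand).
Fth1: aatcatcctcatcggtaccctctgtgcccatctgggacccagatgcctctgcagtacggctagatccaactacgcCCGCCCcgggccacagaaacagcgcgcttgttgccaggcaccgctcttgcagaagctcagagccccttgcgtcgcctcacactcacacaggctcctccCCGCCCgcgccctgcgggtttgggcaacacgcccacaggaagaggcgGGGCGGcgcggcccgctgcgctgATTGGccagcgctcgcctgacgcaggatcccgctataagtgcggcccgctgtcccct
Bag1: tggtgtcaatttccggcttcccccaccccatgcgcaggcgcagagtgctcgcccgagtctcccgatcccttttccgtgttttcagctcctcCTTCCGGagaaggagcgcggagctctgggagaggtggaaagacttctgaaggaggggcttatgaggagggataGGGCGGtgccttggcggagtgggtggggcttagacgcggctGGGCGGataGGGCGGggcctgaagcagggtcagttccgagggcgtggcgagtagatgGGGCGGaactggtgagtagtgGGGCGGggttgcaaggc
Stk11: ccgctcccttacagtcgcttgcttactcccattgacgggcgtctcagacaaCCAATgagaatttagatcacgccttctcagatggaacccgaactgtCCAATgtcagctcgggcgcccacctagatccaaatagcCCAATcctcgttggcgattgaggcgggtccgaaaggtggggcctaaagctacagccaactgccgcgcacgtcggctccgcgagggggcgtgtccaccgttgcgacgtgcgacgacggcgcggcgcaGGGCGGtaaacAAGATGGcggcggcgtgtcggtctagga
Klf13: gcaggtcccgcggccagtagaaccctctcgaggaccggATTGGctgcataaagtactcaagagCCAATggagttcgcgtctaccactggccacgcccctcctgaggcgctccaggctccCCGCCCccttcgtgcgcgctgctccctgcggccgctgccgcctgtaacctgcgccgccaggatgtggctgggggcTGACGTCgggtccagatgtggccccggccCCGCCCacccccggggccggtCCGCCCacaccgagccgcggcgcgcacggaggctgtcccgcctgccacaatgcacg
The DN 2-type promoters were those of Cyth2, an exchange factor for ARF GTPases (chr7:45814267-45814566, minus strand), Dap, the death-associated protein (chr15:31224135-31224434, plus strand), Lmbr1l, a membrane protein (chr15:98918049-98918348, minus strand), and Erg28, a protein of sterol synthesis (chr12:85824844-85825143, minus strand).
Cyth2: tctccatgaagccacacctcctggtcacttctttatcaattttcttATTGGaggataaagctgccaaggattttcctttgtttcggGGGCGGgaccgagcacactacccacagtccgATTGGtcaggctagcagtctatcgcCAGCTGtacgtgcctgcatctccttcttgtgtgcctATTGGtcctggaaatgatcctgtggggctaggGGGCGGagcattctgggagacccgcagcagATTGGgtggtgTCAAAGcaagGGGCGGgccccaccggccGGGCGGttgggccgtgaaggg
Dap: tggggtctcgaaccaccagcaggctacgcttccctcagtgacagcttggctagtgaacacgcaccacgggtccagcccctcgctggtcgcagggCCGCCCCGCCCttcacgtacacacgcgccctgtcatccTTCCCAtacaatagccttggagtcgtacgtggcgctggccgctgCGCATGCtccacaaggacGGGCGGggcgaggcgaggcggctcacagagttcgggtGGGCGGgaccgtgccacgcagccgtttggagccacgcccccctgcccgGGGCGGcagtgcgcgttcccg
Lmbr1l: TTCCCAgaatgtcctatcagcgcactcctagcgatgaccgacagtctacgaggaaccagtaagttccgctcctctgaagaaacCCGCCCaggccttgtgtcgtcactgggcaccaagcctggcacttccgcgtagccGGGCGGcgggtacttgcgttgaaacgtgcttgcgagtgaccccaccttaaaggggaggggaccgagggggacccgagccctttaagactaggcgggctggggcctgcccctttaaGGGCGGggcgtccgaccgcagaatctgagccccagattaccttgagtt
Erg28: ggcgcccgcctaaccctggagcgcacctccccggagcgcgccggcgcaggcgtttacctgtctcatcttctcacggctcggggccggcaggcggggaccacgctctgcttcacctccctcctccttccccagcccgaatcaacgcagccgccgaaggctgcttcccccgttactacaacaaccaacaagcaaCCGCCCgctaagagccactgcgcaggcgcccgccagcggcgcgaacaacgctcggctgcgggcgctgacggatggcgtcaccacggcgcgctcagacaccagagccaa
All 8 promoters held at least 1 GC box, Cyth2 held 4 CCAAT boxes and Stk11 held 3, and those of Bag1, Dap, Lmbr1l and Erg28 held 0.

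The 4 lists differed in length. DP 1 held 39718 and DP 2 held 70385 peaks, against 38808 in DN 1 and 33131 in DN 2. DN 1-type regions were 5.45 times as many as DN 2-type regions, and 4.94 times as many when all lists were limited to the best 33118 peaks on these chromosomes. Of the regions of both DP lists, 59.5% were held by DN 1 and 40.2% by DN 2. DN 2 held 60.2% of those held by DN 1, and DN 1 held 89.2% of those held by DN 2. Of 10 T cell marker genes, 9 and 10 had a gene-end peak in DP 1 and DP 2, against 4 and 2 in DN 1 and DN 2. Of 4 markers of CD25+ DN cells, 2 and 3 had one in DP 1 and DP 2, against 4 and 1 in DN 1 and DN 2. Erythroid and stromal markers had 0 in every list, and of 6 B cell markers 1 and 3 had one in DP 1 and DP 2 and 1 in each DN list. Of 5 myeloid markers 2 and 0 had one in DP 1 and DP 2 and 1 in each DN list, and of 4 natural killer and innate lymphoid markers 0 and 2 had one in DP 1 and DP 2 and 0 in each DN list. In sorted bulk cells, a region open in fewer cells and one less open in each cell cannot be told apart. Read depth is not given by the lists.

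The p-values of these regions, which are the authors' own value per peak, were smaller in the DP lists than in the single DN list. The Fth1 region (chr19:9982201-9983550) had a p-value of 1e-12 in DP 1 and in DP 2, the smallest value that any list gives, and 2.91e-07 in DN 1. The Bag1 region (chr4:40947851-40948750), which also covers the start of Chmp5, a gene of membrane remodelling, had the same 3 values. The Cyth2 region (chr7:45814001-45814950) had 1e-12 in DP 1 and DP 2 and 1.70e-05 in DN 2. In these 3 regions the DP p-values were the smallest that the lists hold, and the DN p-value was larger. Stk11 (chr10:80115201-80116000) and Klf13 (chr7:63938551-63939950) also had 1e-12 in DP 1 and DP 2, with 2.91e-07 and 2.27e-06 in DN 1. In the Dap region (chr15:31223951-31224750) the values were 1.16e-08 in DP 1, 1e-12 in DP 2 and 2.45e-05 in DN 2. Lmbr1l (chr15:98917751-98918600) had 1e-12 in DP 1 and DP 2 and 6.55e-05 in DN 2. The Erg28 region, which also covers the start of Ttll5, had 1.15e-08 in DP 1, 5.10e-06 in DP 2 and 6.55e-05 in DN 2. The second best ranked DN 2-type region (chr10:95745601-95746350) lay 181830 bp from the nearest protein-coding gene end and covered no start site.

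Over all members the rank within a list was taken in percent of that list, with small values for the smallest p-values. Such ranks depend on the length of the list, so patterns are compared within a list and not one list with another. DN 1-type regions had medians of 28.4 in DP 1 and 15.7 in DP 2, and 35.4 in DN 1. DN 2-type regions had 37.1 in DP 1 and 19.9 in DP 2, and 46.3 in DN 2. Regions of all 4 lists stood higher, at 14.5 and 7.59 in the DP lists and 13.1 and 16.7 in the DN lists, and DP-only regions stood lower, at 41.0 and 25.8 in the DP lists. So members of either type lay between the other 2 patterns in both DP lists. The single DN peak had the largest p-value of its list in 19.3% of DN 1-type and 36.0% of DN 2-type regions, against 4.30% and 12.4% for DN 1 and DN 2 peaks in regions of all 4 lists. Members were also of middling width, with a median of 700 bp for DN 1-type and 650 bp for DN 2-type regions, against 850 bp for regions of all 4 lists and 600 bp for DP-only regions.

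The 22167 regions of both DP lists were ordered by their mean rank in the 2 DP lists and split into 10 groups of 2216 or 2217. In the group with the smallest p-values, 6.50% were DN 1-type, 0.451% were DN 2-type, and 91.7% were in all 4 lists. The DN 1-type share was highest in the fourth group, at 31.9%, and was 15.9% in the last. The DN 2-type share was 4.29% in the fourth group and between 4.83% and 5.87% in each group from the fifth on. The share of all 4 lists was lower in each group than in the one before and reached 10.6% in the last, where DP-only regions made up 68.0%. DN 1-type regions were thus most frequent at middle DP ranks, and DN 2-type regions at middle to low ones.

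**Figure D1:**
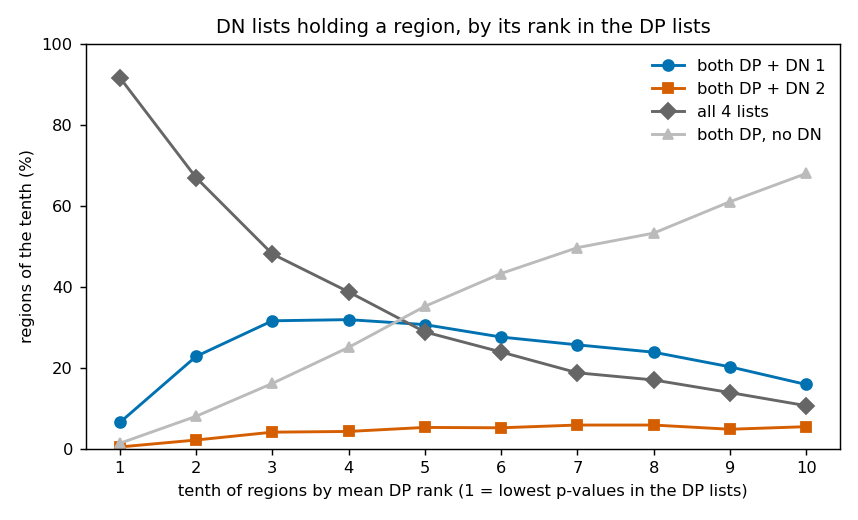
Share of the regions of both DP lists (%, y axis) that fall into each of the 4 patterns, in 10 equal groups ordered by mean rank in the DP lists (x axis, 1 for the smallest p-values). Regions with DN 1 alone peak at 31.9% in the fourth group, regions with DN 2 alone reach at most 5.87%, and regions of all 4 lists run from 91.7% to 10.6%.

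The list without a peak seldom had a near miss. The nearest DN 2 peak lay a median of 32600 bp from a DN 1-type region, and 75 of 5249 (1.43%) had one within 250 bp, against a median of 41700 bp and 1.02% for DP-only regions. The nearest DN 1 peak lay a median of 15650 bp from a DN 2-type region, and 30 of 964 (3.11%) had one within 250 bp, against 18050 bp and 2.55% for DP-only regions. A base common to all 3 lists existed in 98.7% of DN 1-type and 98.9% of DN 2-type regions. At the edge of the rule, the DN peak shared 50 bp or less with the DP peaks in 10 DN 1-type regions and in 1 DN 2-type region. Just outside it, 25 DP-only regions touched a DN 1 peak without sharing a base and 26 lay 50 bp from one, and 6 and 4 did so for DN 2 peaks. Members lay at the same edge towards the list that misses them. Of DN 1-type regions, 6 touched a DN 2 peak and 13 lay 50 bp from one. Of DN 2-type regions, 5 touched a DN 1 peak and 4 lay 50 bp from one. Tox, which encodes a nuclear factor needed for the CD4 lineage, showed such an edge inside the gene, where a DN 2-type region (chr4:6901151-6902050) ended at the base before a DN 1-type region (chr4:6902051-6902600).

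DN 1-type regions lay at gene ends more often than DN 2-type regions. A gene end here is either end of the span of a protein-coding gene, and a region was placed by its midpoint, within 1000 bp of an end, else inside a gene or intergenic. Gene ends took 2040 of 5249 DN 1-type regions (38.9%, 95% Wilson interval 37.6 to 40.2) and 243 of 964 DN 2-type regions (25.2%, 22.6 to 28.0). Regions of all 4 lists had 51.6% at gene ends, DP-only regions 26.4%, and all merged regions 11.4%. The whole lists differed in the same direction, with 22.6% of DN 1 and 17.8% of DN 2 peaks at gene ends. In DP 1 and DP 2 it was 28.7% and 17.6% of peaks. The part of these list differences in the shares of the 2 types was not tested. Intergenic positions took 25.7% of DN 1-type and 37.1% of DN 2-type regions, and 35.4% and 37.7% lay inside genes. The intervals cover counting error and do not stand for replicates, since regions are not replicates and each type rests on 1 DN list. Without DP 1 the gene-end shares were 31.7% for DN 1-type and 16.3% for DN 2-type regions.

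Seen from the positions and pooled over DP ranks, DN 1-type regions made up a like part of each class and DN 2-type regions did not. Of the regions of both DP lists, DN 1-type regions were 24.0% at gene ends, 24.7% inside genes and 22.0% in intergenic sequence. DN 2-type regions were 2.86% at gene ends, 4.82% inside genes and 5.84% in intergenic sequence. At like DP rank the DN 1-type share did differ by position. In the third of the 10 rank groups it was 35.8% at gene ends, 29.5% inside genes and 23.6% in intergenic sequence. In the first group it was 5.65%, 8.81% and 11.1% in the same order, and in the last 15.3%, 16.7% and 15.2%. Gene-end regions numbered 1751 in the first group and 326 in the last. The median distance to the nearest gene end was 3702 bp for DN 1-type, 11236.5 bp for DN 2-type, 764 bp for all-list and 8771 bp for DP-only regions. By position DN 2-type regions were close to DP-only regions, and DN 1-type regions lay between those and the regions of all 4 lists.

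**Figure D2:**
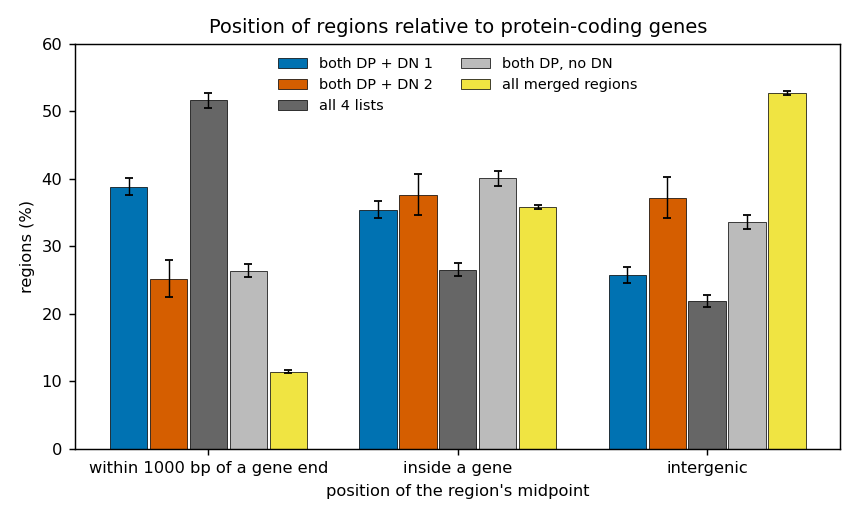
Share of regions (%, y axis) within 1000 bp of a gene end, inside a gene or intergenic (x axis), for both member types, regions of all 4 lists, DP-only regions and all merged regions; bars start at 0 and error bars are 95% Wilson intervals, which cover counting error. At gene ends the bars stand at 38.9% for DN 1-type and 25.2% for DN 2-type regions, against 51.6% for all 4 lists and 26.4% for DP-only regions.

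The share of DN 1-type regions was similar on every chromosome, at 21.6% of the regions of both DP lists on chromosome 14 to 27.8% on chromosome 19. DN 2-type regions ranged from 3.44% on chromosomes 11 and 17 to 5.69% on chromosome 9. The other patterns varied more, with regions of all 4 lists at 19.5% on chromosome 11 and 47.6% on chromosome X, and DP-only regions at 52.4% and 24.6% there. Chromosome 11 held 2044 and 2817 peaks in DP 1 and DP 2, against 1228 and 828 in DN 1 and DN 2.

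Promoters covered by members resembled those of the other patterns of both DP lists in base composition. The RefSeq table gave 21044 start sites of 17273 protein-coding genes out of 21627 on these chromosomes. DN 1-type regions covered 2072 of these sites in 1837 genes, and DN 2-type regions covered 235 in 218 genes. The median GC content was 62.3% under DN 1-type and 61.7% under DN 2-type regions, against 61.7% under regions of all 4 lists, 62.3% under DP-only regions and 50.7% at the 11009 start sites under no region. The ratio of observed to expected CpG was above 0.6 in 83.6% of DN 1-type and 80.4% of DN 2-type promoters, against 82.2% and 81.1% in all-list and DP-only promoters and 20.2% under no region. Members at start sites were thus mostly CpG-rich promoters.

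Of the 12 motifs, the CCAAT box, the letters bound by the factor NF-Y, had the widest spread between the 4 patterns in percentage points, though not as a ratio, and is described here because its values were seen to differ. It was present in 808 of 2072 DN 1-type promoters (39.0%) and 100 of 235 DN 2-type promoters (42.6%), against 48.3% for all-list, 28.8% for DP-only and 37.2% for uncovered promoters, and in 38.5% of all 21044. With 1 start site per gene the shares were 39.3%, 41.4%, 48.8%, 28.6% and 38.6% in the same order. The DP rank moved with this share. When the promoters under regions of both DP lists were split into 3 equal groups by DP rank, DN 1-type promoters had a CCAAT box in 57.8%, 40.4% and 30.7% from the smallest to the largest p-values. All-list promoters had 56.3%, 37.0% and 37.8% in the same groups, and DP-only promoters had 73.3% (22 of 30), 32.0% and 26.8%. DN 2-type promoters had 15 of 21, 40 of 87 and 45 of 127. The order of the patterns differed from the pooled order in the first and second groups and was the same in the third.

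The ETS core was found in 23.1% of DN 1-type and 20.4% of DN 2-type promoters, against 22.0% and 23.3% of all-list and DP-only promoters 3.28% of uncovered ones and 11.7% of all. The GC box was found in 71.6% and 68.5% of the member promoters, against 70.6% and 67.9%, 26.6% of uncovered ones and 46.7% of all. RUNX, TCF and GATA letters, which stand for factors of T cell development, were found in 11.7, 10.6 and 5.36% of DN 1-type and 12.8, 14.5 and 8.51% of DN 2-type promoters. The shares over all 21044 promoters were 14.8, 14.4 and 9.68%, and those of uncovered promoters 17.6, 17.5 and 13.5%. NRF1, CRE and YY1 letters were found in 8.06, 6.52 and 8.35% of DN 1-type and 9.36, 5.96 and 10.6% of DN 2-type promoters, against 4.47, 3.88 and 6.28% of all promoters. The E-box, IKAROS and TATA letters were found in 13.9, 20.3 and 5.41% of DN 1-type and 15.7, 22.1 and 5.53% of DN 2-type promoters, against 15.7, 24.2 and 12.7% of all promoters. For these 3 motifs all-list promoters had 13.2, 21.9 and 5.83%, and DP-only promoters 14.9, 23.1 and 6.01%. A match is a run of letters and not a measured binding site. Base composition also differed between covered and uncovered promoters, and its part in these shares was not tested.

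**Figure D3:**
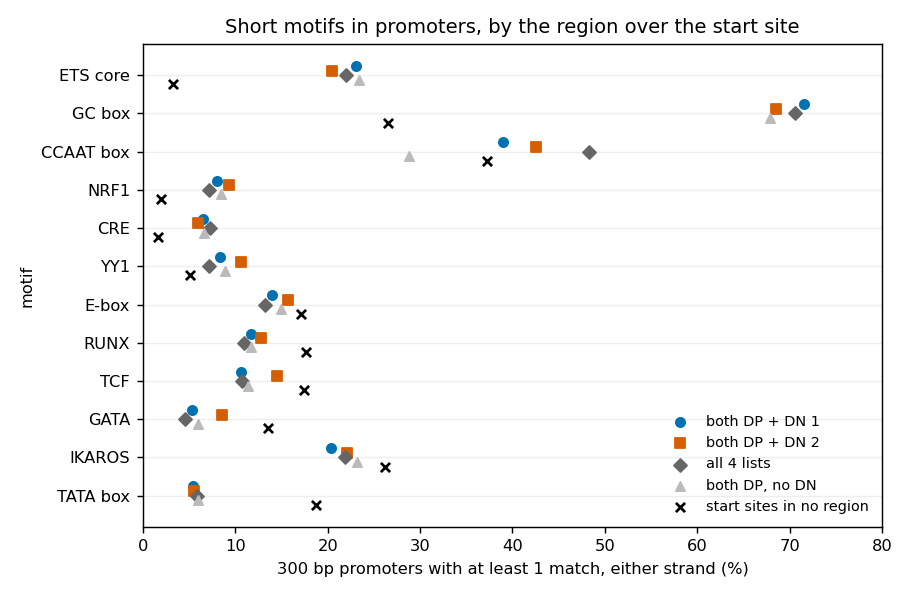
Share of 300 bp promoters with at least 1 match on either strand (%, x axis) for each of 12 short motifs (y axis), by the pattern of the region over the start site. The 4 patterns of both DP lists lie close together for the ETS core (20.4 to 23.3%) and apart for the CCAAT box (28.8 to 48.3%).

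Members also lay near genes of microRNAs, small RNAs that pair with messages through their seed, bases 2 to 8. Of 1005 hairpins in the RefSeq table, 26 had a DN 1-type region within 1000 bp (2.59%) and 10 a DN 2-type region (0.995%). The 7951 all-list and 8003 DP-only regions lay near 43 (4.28%) and 34 (3.38%). Hairpins were counted and not regions, so 1 region near several hairpins counts for each of them. The ones shown were chosen after their values were seen, because they are known from immune cells, and their seeds, in capitals, differ from each other. The level of these RNAs was not measured.
mmu-miR-142a-3p: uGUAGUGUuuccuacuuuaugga
mmu-miR-155-5p: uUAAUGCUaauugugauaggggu
mmu-miR-23a-3p: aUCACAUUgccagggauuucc
mmu-miR-27a-3p: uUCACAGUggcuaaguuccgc
The DN 1-type region near Mir142 (chr11:87755151-87755900) lay 964 bp from the hairpin, with p-values of 1e-12, 5.72e-07 and 1.68e-05 in DP 1, DP 2 and DN 1. The region near Mir155 (chr16:84713251-84713700) lay 440 bp away and had 0.000487 and 0.000890 in DP 1 and DP 2, the largest values of those lists, and 0.000303 in DN 1. The hairpins of Mir23a and Mir27a, on 1 cluster, were near a DN 2-type region (chr8:84207701-84208200) at 318 and 472 bp, with 6.53e-05, 8.17e-05 and 0.000540 in DP 1, DP 2 and DN 2.

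Each member went to the closest protein-coding gene end, up to 100 kb away, which 5801 of 6213 had. Of 21627 genes, 3949 had a DN 1-type region (18.3%), 801 had a DN 2-type region (3.7%) and 4483 had either (20.7%). Regions of all 4 lists were found at 26.7% and DP-only regions at 22.7% of genes. Most of the 4483 genes, 3550, had 1 member, and 267 had 3 or more. Both types were found at 267 genes, which are 6.76% of the genes with a DN 1-type and 33.3% of those with a DN 2-type region. For 2055 of the 4483 genes the members were the whole of their regions of both DP lists.

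Atp10a and Itpkb stood among the 10 genes with the most DN 1-type regions, and both also had DN 2-type regions. Atp10a, a lipid flippase, had 6 DN 1-type and 3 DN 2-type regions beside 6 regions of all 4 lists and 3 DP-only regions. It held 25 and 30 peaks in DP 1 and DP 2, against 20 and 13 in DN 1 and DN 2. One of its DN 2-type regions, inside the gene, had a p-value of 1e-12 in both DP lists and 8.61e-05 in DN 2 (chr7:58754751-58755650). Itpkb, the inositol trisphosphate kinase needed for thymocyte selection in mice, had 6 DN 1-type and 2 DN 2-type regions, with 19 and 16 peaks in DP 1 and DP 2, against 11 and 4 in DN 1 and DN 2. Its best DN 1-type region (chr1:180359151-180359800) had 2.59e-06 in DP 1, 1e-12 in DP 2 and 1.02e-05 in DN 1. A DN 1-type region also lay at an end of Itpkb (chr1:180330201-180331000), 211 bp from it, with 3.79e-05, 7.70e-06 and 6.19e-05 in DP 1, DP 2 and DN 1. The 2 DN 2-type regions also lay inside the gene (chr1:180403501-180404100 and chr1:180406901-180407500), with 0.000269 and 0.000155 in DN 2.

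**Figure D4:**
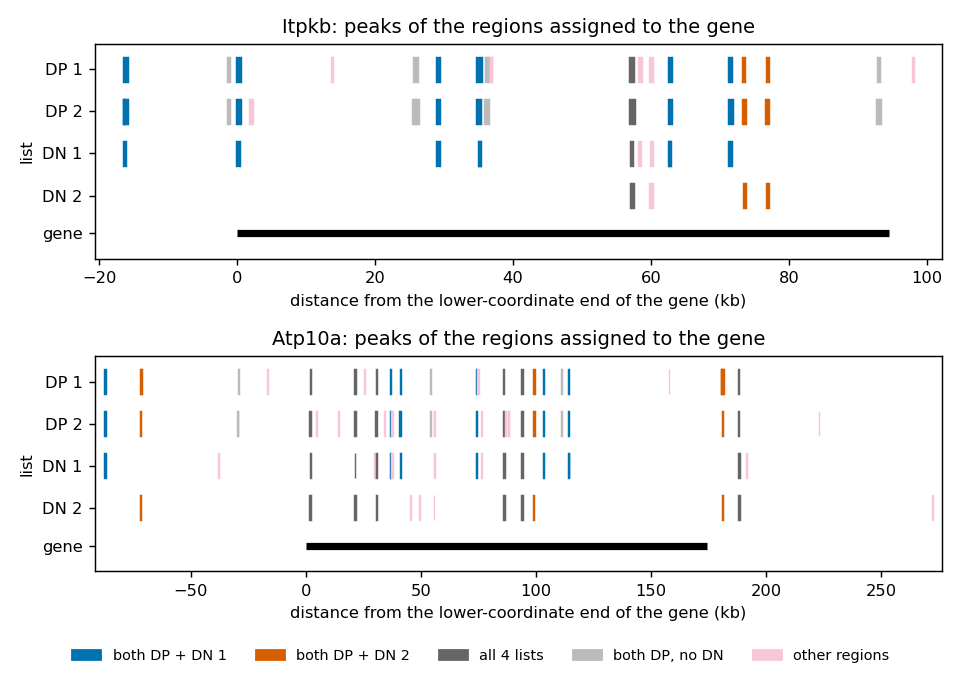
Peaks of the regions assigned to Itpkb (top) and Atp10a (bottom) in each list (rows), by distance from the lower-coordinate end of the gene (kb, x axis); colours give the pattern of the region and the black bar is the gene. Itpkb has 6 regions with DN 1 alone and 2 with DN 2 alone, and Atp10a has 6 and 3.

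Of the other 8 genes named for DN 1-type regions, Hpcal1, a calcium sensor, Ldlrad3, a membrane protein, and Nrip1, a nuclear corepressor, had 6 each. Pik3cg, a catalytic PI3 kinase subunit, Hivep2, a zinc finger factor, Mbnl1, a splicing regulator, Irf2bp2, a corepressor, and Ptpre, a tyrosine phosphatase, had 5 each. Peaks at Pik3cg numbered 9 and 7 in DP 1 and DP 2, against 9 and 1 in DN 1 and DN 2, so that DP 1 and DN 1 held equal numbers there. Atp10a had 3 DN 2-type regions, and the other genes named for this type had 2 each: Hivep2, Ptma (prothymosin alpha), Arsb, Mbp, Ptger3 (a prostaglandin receptor), Zfp697, Prmt9 and Bmp7. At Zfp697 the peaks numbered 4 and 3 in DP 1 and DP 2 and 0 and 2 in DN 1 and DN 2, and both regions of both DP lists there were DN 2-type.

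Counts at genes of T cell identity stand beside 18.3% of all genes with a DN 1-type region and 3.7% with a DN 2-type region. DN 1-type regions were thus the more frequent over all genes too. Of 20 pan-T genes, 12 had a DN 1-type and 4 a DN 2-type region, while 6 had a region of all 4 lists and 17 a DP-only region. Cd28, the costimulatory receptor, and Ets1, a transcription factor, had 3 DN 1-type and 1 DN 2-type region each. One DN 1-type region inside Ets1 (chr9:32747351-32748200) had 1.15e-08 in DP 1, 1e-12 in DP 2 and 2.16e-05 in DN 1. Bcl11b, the commitment factor, and Runx1 had 3 DN 1-type regions each. Tcf7, the gene of TCF1, had 2, and the one inside the gene (chr11:52275001-52276200) had 1e-12, 9.10e-06 and 0.000144 in DP 1, DP 2 and DN 1. Cd3e, a chain of the receptor complex, had 1 DN 2-type region at a gene end (chr9:45009201-45010050), with 6.53e-05 in DP 1, 4.58e-05 in DP 2 and 0.000540 in DN 2, the largest value of the DN 2 list. Gata3, a further T cell factor, had 2 DN 1-type regions beside 3 of all 4 lists.

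Among 30 genes of the DP stage, 13 had a DN 1-type and 6 a DN 2-type region, 17 a region of all 4 lists and 23 a DP-only region. The shares over all genes were 18.3, 3.7, 26.7 and 22.7% in the same order. Tox, Arpp21, Cd5 and Dntt had 3 DN 1-type regions each. One of the 3 at Dntt, the gene of terminal transferase, lay at a gene end (chr19:41029051-41029650), with 3.36e-05, 0.000390 and 0.000144 in DP 1, DP 2 and DN 1. Satb1, a chromatin organiser, had 2 DN 1-type against 7 DP-only regions, and 1 of the 2 was at a gene end (chr17:51832501-51833700), with 2.08e-05, 4.58e-05 and 8.05e-05 in DP 1, DP 2 and DN 1. Cd8b1, the CD8 beta chain, had 1 DN 2-type beside 7 DP-only regions, while Cd4, Cd8a and Rag1 had 0 members. Rag2, a recombinase gene, had 1 DN 1-type region assigned to it (chr2:101608301-101609000), with 7.96e-06, 9.10e-06 and 8.05e-05 in DP 1, DP 2 and DN 1. It lay 16061 bp from the nearest end of Rag2, inside the span of another gene.

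Of 23 genes of the CD25+ DN stage, 9 had a DN 1-type and 0 a DN 2-type region, beside 18.3% and 3.7% of all genes. The housekeeping, translation and mitochondrial lists also had 0 genes with a DN 2-type region. Il2ra, which encodes the CD25 used for sorting, had 3 DN 1-type regions beside 1 of all 4 lists and 3 DP-only regions. Its member outside the gene span (chr2:11635951-11636500) had 6.53e-05, 6.50e-05 and 2.44e-05 in DP 1, DP 2 and DN 1, and the 2 inside the gene had 0.000303 in DN 1. Notch1 had 3 DN 1-type regions, of which 1 was at a gene end (chr2:26503201-26504150), with 5.53e-05, 4.58e-05 and 0.000167 in DP 1, DP 2 and DN 1. Mycn also had 3, Gfi1 and Lyl1 had 2 each, and Hes1 had 1, while Ptcra and Notch3 had 0. Those assigned to Lyl1 lay 18360 and 33035 bp from its nearest end, outside Lyl1 and within the span of another gene. Of 20 Notch pathway genes, 6 had a DN 1-type and 2 a DN 2-type region, led by Notch1 and by Maml3, a coactivator, with 2 and 1.

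Of 21 T cell receptor signalling genes, 11 had a DN 1-type and 3 a DN 2-type region, beside 18.3% and 3.7% of all genes. Prkcq, the kinase PKC theta, had 4 DN 1-type regions, Rasgrp1, which activates Ras, had 3 and 2, and Nfkb1 and Vav1 had 3 DN 1-type regions each. Of 16 cytokine and chemokine receptor genes, 12 had a DN 1-type and 2 a DN 2-type region, beside the same shares of all genes. Cxcr4, the receptor for CXCL12, had 3 DN 1-type regions, and the one inside the gene (chr1:128590651-128591700) had 1e-12, 2.28e-06 and 6.19e-05 in DP 1, DP 2 and DN 1. Il6ra had 3 as well.

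Lists of genes that most cells use had DN 1-type regions at 5 to 10 genes and DN 2-type regions at 0 to 3. The counts of this paragraph stand beside 18.3% and 3.7% of all genes. Of 16 genes of ribosome biogenesis and translation, 10 had a DN 1-type region, 0 a DN 2-type, 6 an all-list and 0 a DP-only region. The 10 were Eif4e with 2 and Eef1b2, Eif3a, Eif4a1, Eif5a, Fbl, Nop56, Nop58, Polr1a and Polr1b with 1 each. Of 16 proteasome genes, 8 and 1 had a DN 1-type and a DN 2-type region, among them Psma1 and Psma3 with 2 DN 1-type regions each. The numbers were 9 and 1 of 20 chromatin regulators, including 1 DN 1-type region at Ctcf, 5 and 1 of 16 splicing genes, 5 and 0 of 16 genes of mitochondrial respiration, 6 and 0 of 16 housekeeping genes, and 6 and 3 of 21 cell cycle genes (Ccnd3 and Ccne1 with 3 DN 1-type regions each). The splicing count of either type was 1 in place of 6 when peaks at the largest p-value of their list were left out. Of 14 genes of V(D)J recombination and end joining, 3 (21.4%) had a DN 1-type and 0 a DN 2-type region. These were Dntt with 3, Lig4 with 2 and Rag2 with 1, and 11 of the 14 had a region of all 4 lists.

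Markers of other cell types were counted in the same way, beside 18.3% of all genes with a DN 1-type and 3.7% with a DN 2-type region. DN 1-type and DN 2-type regions were found at 2 and 0 of 12 B cell, 2 and 1 of 14 myeloid, 3 and 2 of 12 natural killer and innate lymphoid, 4 and 0 of 10 gamma-delta, 1 and 1 of 9 erythroid and 1 and 0 of 12 stromal markers. For DN 1-type regions these were 16.7, 14.3, 25, 40, 11.1 and 8.33% of the markers in the same order. Id2 and Klrb1c led the markers with 3 members each. The gamma-delta count of either type was 1 in place of 4 when peaks at the largest p-value of their list were left out and when lists were limited to the shortest length, and the stromal count was 3 in place of 1 without DP 1.

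Genes differ in how many regions they have, so the DN 1-type share of each list's regions of both DP lists is given too, beside 23.7% over all. It was 64.7% of 17 at translation genes, 41.7% of 24 at proteasome genes, 33.3% of 51 at CD25+ DN-stage genes, 33.3% of 15 at splicing genes, 30.3% of 33 at chromatin regulators, 29.7% of 91 at pan-T genes, 29.4% of 68 at cytokine and chemokine receptors, 29.4% of 17 at mitochondrial and 26.7% of 30 at housekeeping genes. It was 21.4% of 42 at Notch pathway genes, 21.2% of 99 at T cell receptor signalling genes, 21.2% of 118 at DP-stage genes, 19.4% of 31 at recombination genes and 10 of 50 at cell cycle genes. The T cell receptor signalling and DP-stage lists, which had many genes with members, had DN 1-type shares of regions close to that over all. Among other cell types it was 2 of 5 regions at B cell, 2 of 13 at myeloid, 6 of 24 at natural killer and innate lymphoid, 4 of 21 at gamma-delta, 1 of 4 at erythroid and 1 of 12 at stromal markers. DN 2-type regions numbered 0 to 6 in each of the 20 lists. No list was tested, since the lists were chosen with earlier results of these data known.

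**Figure D5:**
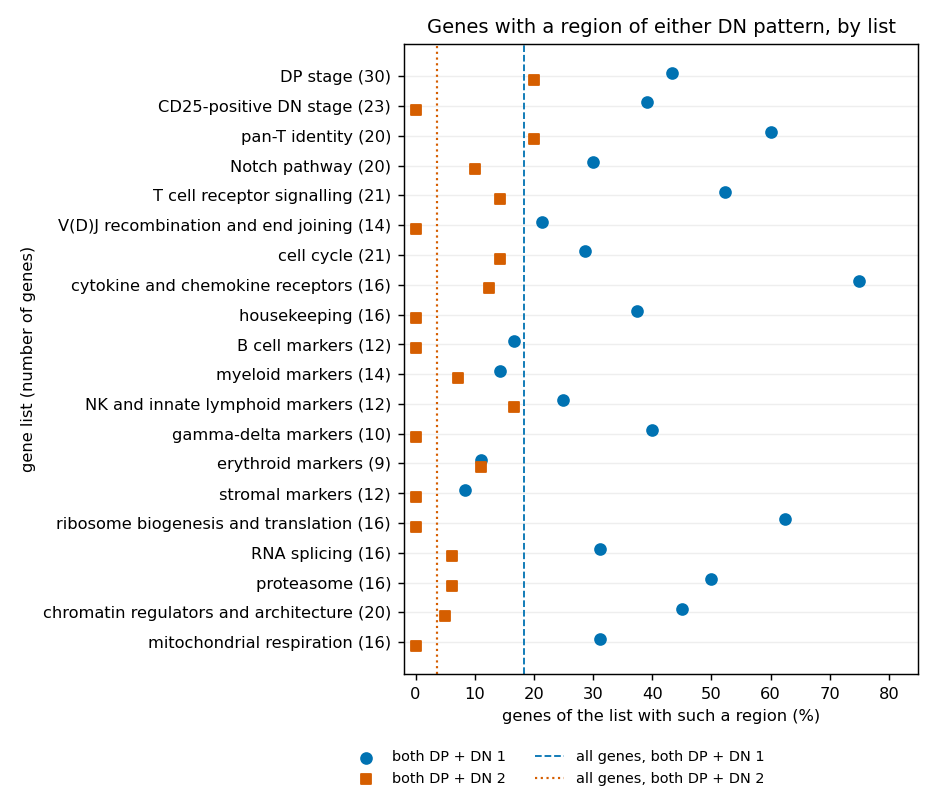
Share of the genes of each list (%, x axis) with a DN 1-type region (circles) or a DN 2-type region (squares); list sizes stand in parentheses and vertical lines mark the shares over all 21627 genes, 18.3% and 3.7%. Cytokine and chemokine receptors (12 of 16), translation (10 of 16) and pan-T genes (12 of 20) lie farthest to the right for DN 1-type regions.

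Antigen receptor loci held members at the following counts, beside a member share of 28.0% over all regions of both DP lists. The Igh locus (chr12:113256204-116009954), which is rearranged in B cells, held 9 DN 1-type and 5 DN 2-type regions among 69 regions of both DP lists, of which 52 were DP-only. Tcrb held 2 DN 1-type regions among 10, and 1 of them (chr6:41544201-41545200) lay 345 bp from Trbj2-7, with 9.98e-06, 1.31e-05 and 8.05e-05 in DP 1, DP 2 and DN 1. The Tcra and Tcrd locus held 1 DN 1-type region among 29, over Trav13-5, and Tcrg held 1, which was its single region of both DP lists. Igk held 0 members among 4.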

How the data were processed

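ATAC-seq peaks were deposited by the authors as 1 list per sample for 2 DP and 2 DN samples of mouse thymus. The deposited lists give a start, an end and a p-value per peak, on a grid of 50 bp. The names of the lists refer to PeakDEck, and Bowtie2, Picard and mm10 are named in the submitters' processing notes. Settings, peak-calling control and read depth: not given in the sources used here, so no interval that needs depth was computed.

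Peaks on chromosomes 1 to 19 and X were merged where they shared at least 1 bp, and each region was described by the lists that held it. Where a list had several peaks in a region, the smallest p-value was taken. Ranks are percentages of a list, with tied p-values at their mean rank. Protein-coding genes, promoters and microRNAs came from RefSeq tables of GRCm38.p6, and 319 of 320 distinct list genes were in the gene table. The members and gene lists were chosen with earlier results of these data known. No test was made: the lists chose the regions, regions are not replicates, and 4 samples in pairs allow 3 splits, so that no permutation p can be below 0.333. The text names the 10 genes with the most regions of each type and the 5 best ranked regions of each type. It also names up to 4 members per gene list and 16 genes of thymocyte development. Ties among the 10 genes were broken by the mean rank of their regions and then by name. Ties in the gene lists were broken by name, and ties among regions by width and position. Genes or regions added beyond these were chosen after their values were seen. Some genes and regions that this rule selects are not reported here. Intervals for shares are Wilson intervals. The software was matplotlib 3.10.9, scipy 1.17.1, pandas 2.3.3 and numpy 2.4.6, under Python 3.11.15.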

Additional observations from a re-analysis of the deposited data

How the results depend on the processing

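The number of members was 6213, and lay between 5386 and 6260 when peaks at the largest p-value of each list were left out, all lists were limited to the shortest length, 50% cover was asked for, or regions within 250 bp were merged. Without DP 1 or DP 2 it was 8971 and 7394. In these same settings DN 1-type regions numbered 7069 and 6108, and DN 2-type regions 1902 and 1286. With DN 2 left out, regions of both DP lists and DN 1 numbered 13195. With DN 1 left out, those of both DP lists and DN 2 numbered 8905. The last counts take in the regions of all 4 lists, since no other DN list was left to set them apart. The gene-end share of DN 1-type regions (38.9%) was 42.7% without peaks at the largest p-value, 41.3% at the shortest length, 41.5% with 50% cover, 34.7% and 46.2% with gene ends of 500 and 2500 bp, and 31.7 to 35.5% when a DP list was left out. That of DN 2-type regions (25.2%) was 30.2% without peaks at the largest p-value, 29.9% at the shortest length, 21.5% with 500 bp and 31.2% with 2500 bp, and 16.3 to 20.6% when a DP list was left out. The cause of these shifts was not tested. In each setting with both DN lists the DN 1-type share at gene ends was the higher. The number of genes with a member (4483) lay between 4037 and 5670. Counts over the gene lists, which were added after seeing the data, stayed within 1.5 times in 116 of 120 cases. The others were gamma-delta markers (1 in place of 4) without peaks at the largest p-value and at the shortest length, splicing (1 in place of 6) without peaks at the largest p-value, and stromal markers (3 in place of 1) without DP 1. No paired analysis was possible because the result comes from no test and nothing ties a DP sample to a DN sample.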

Other observations

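Neighbours among the regions of both DP lists were counted for each pattern. Within 10 kb, 16.2% of DN 1-type regions had another DN 1-type region, 2.71% a DN 2-type, 15.0% an all-list and 21.8% a DP-only region. Of DN 2-type regions, 13.5% had a DN 1-type, 2.49% another DN 2-type, 16.2% an all-list and 18.0% a DP-only region. The shares were 10.1%, 2.21%, 15.4% and 12.5% in the same order for all-list regions and 15.4%, 2.57%, 13.0% and 26.1% for DP-only regions. Start sites with another start site on the opposite strand within 1000 bp made up 21.5% of those under DN 1-type and 15.7% of those under DN 2-type regions, against 24.9% under all-list, 20.6% under DP-only and 4.62% under no region. Beyond Trac, the constant segment of the T cell receptor alpha chain, a DN 1-type region lay at 2853 bp (chr14:54227051-54228100), with a p-value of 1e-12 in DP 1 and DP 2 and 6.19e-05 in DN 1.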
